A study of Mus musculus with 768 samples.

Results

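Cochlear organoid cells collected on culture day 7 were compared with those collected on day 3. Cells were assigned to a day and a culture by their labels, and a cell was kept when it had at least 50000 reads on genes, a read in at least 1500 genes and at most 20% of its reads on mitochondrial genes. This left 85 of 88, 70 of 82 and 73 of 85 cells in the 3 day 3 cultures (89.4% of that day's labelled cells). In the 5 day 7 cultures it left 39 of 41, 37 of 40, 72 of 80, 78 of 80 and 75 of 80 cells (93.8%). The whole series, which also has 3 cultures collected on day 1, keeps 92.6% of its cells under these limits, and the cells of days 3 and 7 together 91.8%. The organoids were grown from cells of the greater epithelial ridge (GER) of mice on postnatal day 2 that carried the Sox2-GFP, Fgfr3-CreERT2 and Ai14-tdTomato alleles. The GER cells had been enriched by flow cytometry. Every culture of all 3 days had the same DMEM/F-12 medium with N-2, B-27, ampicillin, the growth factors EGF, FGF2 and IGF1, the GSK3 inhibitor CHIR99021, the histone deacetylase inhibitor valproic acid, 2-phospho-L-ascorbic acid and an inhibitor of the TGF-beta receptor. After trypsin treatment of the organoids each cell was picked by hand into a plate with a glass pipette, and libraries were made by SmartSeq2, a method that reads whole transcripts and carries no molecular identifiers. The labels number the cultures of a day as replicates and do not say whether these came from separate animals or pools, so the p-values below measure the spread between these cultures.

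The GER is the band of tall epithelial cells that lies beside the organ of Corti in the immature cochlea. Its cells express Sox2 and supply proteins of the tectorial membrane, the extracellular sheet over the hair cells. In this tissue the Notch pathway acts through repressors of the Hes and Hey families, and BMP signalling acts through SMAD proteins on targets that include the Id genes. Id proteins dimerise with basic helix-loop-helix factors such as Atoh1, the factor that starts hair cell formation, and keep them from DNA. Epithelial cells that leave their tissue also build actin stress fibres, whose genes include targets of serum response factor, and many of them switch on genes known from wound edges.

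Levels below are CPM, reads of a gene summed over the retained cells of a culture and scaled to its library size, and cultures are listed in the order of their numbers, 1 to 3 on day 3 and 1 to 5 on day 7. Summed reads came to 53068566 to 61160322 per day 3 culture and 31839626 to 72483565 per day 7 culture. In such sums, fewer cells of a type and less RNA per cell cannot be told apart, so the share of cells with a read is given after each cell was thinned to 200000 reads, as the mean over cultures. Of 17466 genes tested, edgeR called 0.968% at an adjusted p under 0.05, of which 32 genes were higher on day 7 (0.183% of genes tested) and the others lower (0.784%). DESeq2 called 3.66% and limma on the mean CPM per cell 0.91%. These shares are the background for every count of called list members below. The CPM of the day 3 and day 7 cultures did not overlap for any of the 32 rises, nor for any of the falls except Acta2. Over all genes tested, 8.13% had no such overlap, 2.99% with day 7 higher and 5.14% with day 7 lower. The median log2 fold change of all genes tested was 0.01, and 50.8% of them were positive. Of the retained cells, 99.6% had a read of Cdh1 or Epcam, both epithelial adhesion genes, and the tectorin genes Tecta and Tectb were read in every culture, Tecta at 1746, 1322 and 1181 CPM on day 3 and 1516, 1279, 1139, 1486 and 2310.4 CPM on day 7.

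The 32 genes that rose had a read in a median of 82.3% of day 7 cells, and 26 of them in at least 50% of the cells. The genes that fell had a read in a median of 31.5% of day 3 cells, from 1.76% to 100% of the cells. For 39 of the falls, 5 single cells held over 80% of the gene's day 3 reads, and 38 of these 39 were read in under 10% of day 3 cells. Among the 52 falls with a log2 fold change beyond -6, 36 belonged to this group of 39. None of the rises had 80% of its day 7 reads in 5 cells. This difference between rises and falls was not tested.

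**Figure D1:**
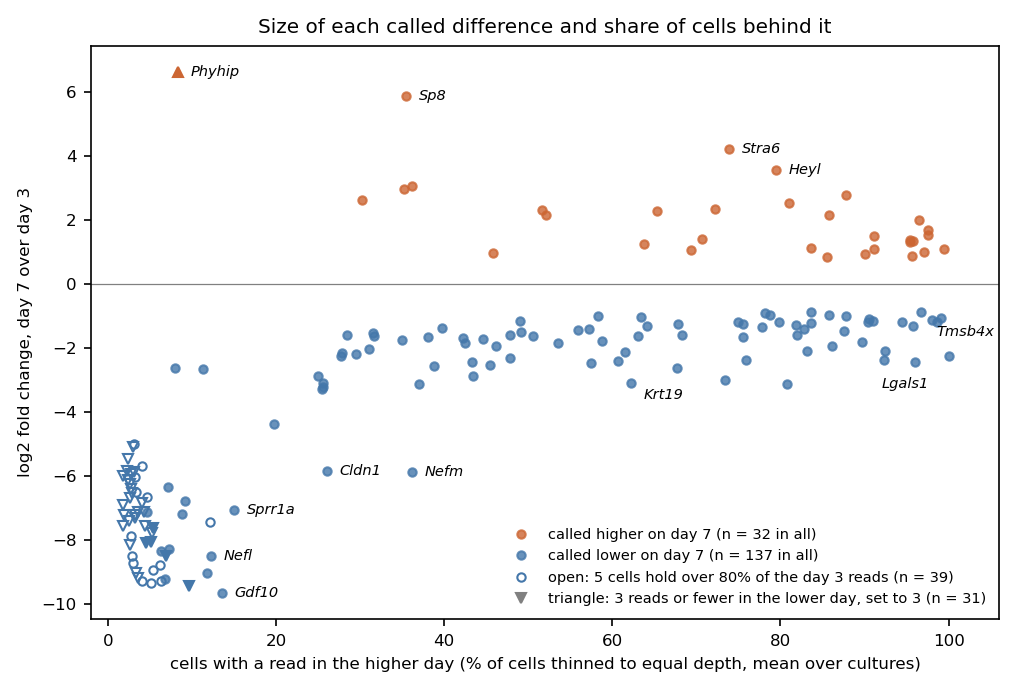
Each mark is 1 called gene, placed by the share of thinned cells with a read in its higher day (x axis, percent, mean over cultures) and by its log2 fold change of day 7 over day 3 (y axis). Open marks are the 39 falls whose day 3 reads sat mostly in 5 cells, triangles are genes with 3 reads or fewer in the lower day, set to 3 reads; the open marks lie below 13% of cells, while 26 of the 32 rises lie at 50% of cells or more.

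Genes of the BMP and Id list were among the rises. Id1 (ENSMUSG00000042745.9, chromosome 2 from 152736251 to 152737410) had 21.3, 16.9 and 19.7 CPM on day 3 and 150.5, 120.4, 52.97, 56.3 and 173.1 CPM on day 7. Every day 7 culture stood above every day 3 culture, with day 7 cultures 3 and 4 well below the other day 7 cultures (log2 fold change 2.52, standard error 0.47, adjusted p 0.0289 by edgeR). Its share of cells with a read was 27.9% of day 3 cells and 80.99% of day 7 cells. Id3 had 84.01, 65.7 and 30.5 CPM on day 3 and 649.2, 493.1, 188.7, 160.9 and 546.4 CPM on day 7, with the same day 7 cultures 3 and 4 lowest (log2 fold change 2.76, standard error 0.53, adjusted p 0.0336 by edgeR). Id2, another member of the family, had 103.1, 89.8 and 73.1 CPM on day 3 and 318.9, 345.7, 247.1, 137.6 and 369.8 CPM on day 7 (log2 fold change 1.68, standard error 0.34, adjusted p 0.0398 by edgeR). Day 7 culture 4 was again the lowest and the groups did not overlap. Bmp7, a secreted BMP ligand, had 175.3, 98.8 and 130.7 CPM on day 3 and 297.5, 351.3, 497.98, 307.9 and 260.3 CPM on day 7, and here culture 3 was the highest of day 7 (log2 fold change 1.35, standard error 0.26, adjusted p 0.0344 by edgeR). Bmp2, another ligand of the list, was called lower, from 0.424, 0.332 and 2.37 CPM in the day 3 cultures to 1 read on day 7, with 98.8% of the day 3 reads in 5 cells. Bmp2 was not called by edgeR without day 1 cultures 1 and 3, day 3 cultures 1, 2 and 3 or day 7 cultures 1, 2, 3, 4 and 5 (adjusted p 0.0550 to 0.150). Of the 27 genes listed, 24 were tested, 4 were called higher and 1 lower, and the list's median log2 fold change was -0.04. DESeq2 called the same 5 genes. Over all genes tested, edgeR called 0.183% higher and 0.784% lower, and DESeq2 called 3.66%. The share of cells with mitotic transcripts, defined below, was highest in the same day 7 cultures in which Id1 and Id3 were lowest, at 86.96% in culture 3 and 74.4% in culture 4 against 25.3% to 56.4% in the other three. Among cells without mitotic transcripts the log2 fold change of Id1 was 3.62 and that of Id3 3.30, and among cells with them 1.97 and 2.53. The difference between the 2 kinds of cells was not tested. Id1 was not called by edgeR without day 3 cultures 1, 2 and 3 or day 7 cultures 1 and 2 (adjusted p 0.0524 to 0.138). Id3 was not called by edgeR without day 1 culture 2, day 3 cultures 1, 2 and 3 or day 7 cultures 1 and 2 (adjusted p 0.0531 to 0.138). Id2 was not called by edgeR without day 1 culture 2, day 3 cultures 1, 2 and 3 or day 7 cultures 1, 2 and 5 (adjusted p 0.0589 to 0.181). Bmp7 was not called by edgeR without day 1 culture 3, day 3 cultures 2 and 3 or day 7 cultures 1 and 2 (adjusted p 0.0551 to 0.157).

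From the Notch list, the repressors Heyl and Hey1 rose. Heyl (ENSMUSG00000032744.4, chromosome 4 from 123233556 to 123249875) had 17.9, 24.1 and 21.1 CPM on day 3 and 272.2, 384.95, 116.6, 278.4 and 173.3 CPM on day 7 (log2 fold change 3.54, standard error 0.67, adjusted p 0.0308 by edgeR). The day 3 cultures lay close together and the lowest day 7 culture, number 3, was several times above them. Heyl was read in 28.9% of day 3 cells and 79.5% of day 7 cells. Hey1 had 77.6, 159.8 and 114.97 CPM on day 3 and 363.3, 458.5, 202.1, 245.8 and 378.5 CPM on day 7 (log2 fold change 1.49, standard error 0.30, adjusted p 0.0397 by edgeR), with no overlap between the days, although day 3 culture 2 came near day 7 culture 3. It was read in 65.8% of day 3 cells and 91.2% of day 7 cells. Hes1, a repressor of the same pathway, had 51.1, 77.7 and 57.5 CPM on day 3 and 121.4, 126.3, 35.4, 149.7 and 174.5 CPM on day 7 and was not called (edgeR adjusted p 0.390), with day 7 culture 3 below all 3 day 3 cultures. Hes5 was not called either (edgeR adjusted p 0.790), at 0.0157, 5.57 and 2.12 CPM on day 3 and 11.4, 6.27, 0.470, 3.08 and 11.1 CPM on day 7. Of 25 listed Notch genes 24 were tested, 2 were called higher and 0 lower, with a median log2 fold change of 0.22, against 0.01 over all genes tested. DESeq2 called 6 of them, beside 3.66% of all genes tested, of which edgeR called 0.183% higher. Heyl was not called by edgeR without day 1 culture 2, day 3 cultures 1, 2 and 3 or day 7 cultures 1 and 2 (adjusted p 0.0503 to 0.138). Hey1 was not called by edgeR without day 1 cultures 1, 2 and 3, day 3 cultures 1, 2 and 3 or day 7 cultures 1, 2 and 5 (adjusted p 0.0581 to 0.159).

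Of the immediate early genes, which code for transcription factors and other short-lived proteins switched on within minutes of a stimulus, Jun and Fosb rose. Jun, a subunit of the AP-1 transcription factor, had 189.98, 140.2 and 256.1 CPM on day 3 and 577.6, 634.7, 461.8, 687.9 and 425.9 CPM on day 7 (log2 fold change 1.51, standard error 0.27, adjusted p 0.0268 by edgeR). The lowest day 7 culture was clear of the highest day 3 culture. Fosb, a partner of Jun in AP-1, had 3.66, 8.42 and 10.1 CPM on day 3 and 41.7, 24.6, 33.8, 20.6 and 56.4 CPM on day 7, with no overlap (log2 fold change 2.26, standard error 0.43, adjusted p 0.0310 by edgeR), and was read in 23.5% of day 3 cells and 65.3% of day 7 cells. Fos itself had 50.4, 94.5 and 232.7 CPM on day 3 and 745.9, 751.3, 498.96, 362.9 and 656.5 CPM on day 7. Day 3 culture 3 was the highest of day 3 and all day 7 cultures stood above it, and Fos missed the threshold (log2 fold change 2.26, standard error 0.55, adjusted p 0.0843 by edgeR). All 22 listed genes were tested, 18 were positive, 8 had every day 7 culture above every day 3 culture (against 2.99% of all genes tested), the median log2 fold change was 1.33, and edgeR called Jun and Fosb. DESeq2 called 11 of the 22. Cyr61, which codes for a matrix protein induced by the YAP coactivator and by serum and was chosen here after its values were seen, had 379.7, 670.6 and 567.1 CPM on day 3 and 1649.8, 2902, 903, 1977 and 3339 CPM on day 7 (log2 fold change 2.00, standard error 0.43, adjusted p 0.0486 by edgeR). Day 7 culture 3 was the lowest of day 7 and still above day 3 culture 2, the highest of day 3. Jun was not called by edgeR without day 3 cultures 1 and 2 or day 7 cultures 1 and 2 (adjusted p 0.0508 to 0.137). Fosb was not called by edgeR without day 1 culture 3, day 3 cultures 1, 2 and 3 or day 7 culture 1 (adjusted p 0.0509 to 0.135). Cyr61 was not called by edgeR without day 1 cultures 1 and 3, day 3 cultures 1, 2 and 3 or day 7 cultures 1, 2, 4 and 5 (adjusted p 0.0606 to 0.177).

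Among retinoid genes, Stra6, the cell-surface receptor that takes up retinol from its carrier protein, had 5.59, 5.26 and 20.7 CPM on day 3 and 208.7, 302.6, 96.2, 259.4 and 109.5 CPM on day 7 (log2 fold change 4.22, standard error 0.62, adjusted p 0.00931 by edgeR). Day 3 culture 3 stood above the other day 3 cultures and far under the lowest day 7 culture. It was read in 19.4% of day 3 cells and 73.9% of day 7 cells. Of the 32 rises it lost its call on leaving out the fewest cultures, 1 of 11. Stra6 was not called by edgeR without day 3 culture 2 (adjusted p 0.0546). Sdr16c5, an enzyme that oxidises retinol, moved the other way, with 9.75, 31.7 and 21.8 CPM on day 3 and 0.744, 0, 1.55, 0.839 and 1.88 CPM on day 7 (log2 fold change -4.37, standard error 0.86, adjusted p 0.0358 by edgeR). Sdr16c5 was not called by edgeR without day 1 culture 2, day 3 cultures 1, 2 and 3 or day 7 cultures 1, 3 and 4 (adjusted p 0.0504 to 0.145). Of 22 tested retinoid genes these were the 2 called by edgeR, and the median log2 fold change was 0.33. DESeq2 called 10 of them, beside 3.66% of all genes tested, of which edgeR called 0.968%.

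From the list of otic transcription factors, Sp8 rose. Sp8, a zinc finger factor, had 0.816, 0.489 and 0 CPM on day 3 and 45.4, 40.8, 18.1, 13.6 and 12.1 CPM on day 7 (log2 fold change 5.88, standard error 1.07, adjusted p 0.0272 by edgeR). It was at or near 0 in all day 3 cultures, and day 7 cultures 1 and 2 were highest. Its reads spread over 35.5% of day 7 cells. Sp8 was not called by edgeR without day 3 cultures 1 and 2 or day 7 culture 1 (adjusted p 0.0548 to 0.137). Sox2, the factor behind the GFP allele, was not called, at 7.17, 19.2 and 17.7 CPM on day 3 and 12.3, 14.3, 11.8, 8.14 and 6.81 CPM on day 7 (edgeR adjusted p 0.723).

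A pair of cartilage-type collagen genes rose, and both had a day 1 mean above their day 7 mean. Col9a1 had 153.8, 202.7 and 164.6 CPM on day 3 and 477.8, 728.1, 265.7, 297.9 and 462.8 CPM on day 7 (log2 fold change 1.36, standard error 0.29, adjusted p 0.0497 by edgeR), beside 619.4 ± 34.1 CPM in the 3 day 1 cultures (mean ± SD). Col11a2 had 2.15, 2.23 and 2.45 CPM on day 3 and 40.5, 19.5, 6.07, 6.07 and 17.3 CPM on day 7 (log2 fold change 2.97, standard error 0.61, adjusted p 0.0410 by edgeR), beside 29.3 ± 4.19 CPM on day 1. In both genes day 7 cultures 1 and 2 were among the highest of day 7, and no culture overlapped between days 3 and 7. For the other 30 rises the day 1 mean lay below the day 7 mean. Col6a1, a chain of the microfibrillar collagen VI, was called lower, with 4.47, 0.899 and 0.816 CPM in the day 3 cultures and 2 reads on day 7, a level 284.5-fold lower on day 7 (95% exact counting interval 78.2 to 2358). Reads carry no molecular identifiers, so such intervals cover counting error only. The call of Col6a1 was kept on leaving out each culture in turn. Col6a1 was read in 4.43% of day 3 cells, and 5 cells held 83.6% of its day 3 reads. On day 1 it had 19.3 ± 12.3 CPM and was read in 30.5% of cells, so its mean was already lower on day 3. Of 30 tested genes of collagens and basement membrane these were the 3 called by edgeR, and DESeq2 called 6 (0.968% and 3.66% over all genes tested). Col9a1 was not called by edgeR without day 1 cultures 1, 2 and 3, day 3 cultures 1, 2 and 3 or day 7 cultures 1, 2 and 5 (adjusted p 0.0636 to 0.198). Col11a2 was not called by edgeR without day 1 cultures 1, 2 and 3, day 3 cultures 1, 2 and 3 or day 7 cultures 1, 2 and 5 (adjusted p 0.0548 to 0.171).

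The other rises named by the rule code for proteins of varied function. Gstm2, a glutathione S-transferase, had 3.58, 2.09 and 3.20 CPM on day 3 and 21.97, 32.01, 17.5, 15.4 and 34.97 CPM on day 7 (log2 fold change 3.04, standard error 0.54, adjusted p 0.0247 by edgeR), and since it lies in a cluster of near-identical Gstm genes its reads may have been shared among copies. Ces1d, a carboxylesterase, had 6.50, 6.16 and 7.79 CPM on day 3 and 26.6, 21.1, 18.2, 94.8 and 48.002 CPM on day 7, with day 7 culture 4 the highest (log2 fold change 2.61, standard error 0.55, adjusted p 0.0474 by edgeR). Cygb, an oxygen-binding globin, had 9.46, 8.91 and 10.3 CPM on day 3 and 65.9, 78.9, 25.7, 27.4 and 44.5 CPM on day 7 (log2 fold change 2.34, standard error 0.41, adjusted p 0.0233 by edgeR). The day 3 cultures of each of these genes lay within a narrow band. Fam107a, an actin-associated protein, had 15.6, 26.3 and 25.1 CPM on day 3 and 111.3, 98.4, 61.5, 73.1 and 151.9 CPM on day 7 (log2 fold change 2.15, standard error 0.35, adjusted p 0.0164 by edgeR) and was read in 38.9% of day 3 cells and 85.8% of day 7 cells. Pgm2l1, which makes glucose 1,6-bisphosphate, had 13.2, 8.01 and 13.9 CPM on day 3 and 88.5, 65.2, 80.5, 23.1 and 32.7 CPM on day 7, with the highest day 7 values in cultures 1, 2 and 3 (log2 fold change 2.31, standard error 0.44, adjusted p 0.0310 by edgeR). Frmpd4, a scaffold protein, had 10.01, 4.59 and 13.4 CPM on day 3 and 43.4, 75.95, 33.998, 29.02 and 22.97 CPM on day 7 (log2 fold change 2.14, standard error 0.46, adjusted p 0.0487 by edgeR). The days were separate for all genes of this paragraph so far, but the rule took only genes without overlap, so this was set beforehand. Plat, the tissue plasminogen activator, had 174.3, 197.7 and 173.6 CPM on day 3 and 546.97, 611.9, 310.5, 289.9 and 487.9 CPM on day 7 (log2 fold change 1.31, standard error 0.27, adjusted p 0.0418 by edgeR). The secreted ligand Wnt7a had 76.2, 85.6 and 100.003 CPM on day 3 and 126.999, 175.3, 168.5, 165.9 and 141.4 CPM on day 7 (log2 fold change 0.83, standard error 0.18, adjusted p 0.0474 by edgeR). Plat and Wnt7a were chosen after their values were seen. Phyhip had no read on day 3 and 0.341, 3.20, 1.21, 3.30 and 0.721 CPM in the day 7 cultures, at least 98.98-fold higher against 3 reads over the 3 day 3 cultures, in 8.38% of day 7 cells. Fam107a was not called by edgeR without day 3 cultures 1, 2 and 3 (adjusted p 0.0610 to 0.0675). Gstm2 was not called by edgeR without day 3 cultures 1, 2 and 3 or day 7 culture 1 (adjusted p 0.0557 to 0.137). Cygb was not called by edgeR without day 3 cultures 1, 2 and 3 or day 7 culture 1 (adjusted p 0.0592 to 0.125). Pgm2l1 was not called by edgeR without day 1 cultures 2 and 3, day 3 cultures 1, 2 and 3 or day 7 cultures 1, 2 and 3 (adjusted p 0.0512 to 0.150). Frmpd4 was not called by edgeR without day 1 cultures 1, 2 and 3, day 3 cultures 1, 2 and 3 or day 7 cultures 1, 2, 3 and 4 (adjusted p 0.0553 to 0.186). Plat was not called by edgeR without day 1 cultures 1, 2 and 3, day 3 cultures 1, 2 and 3 or day 7 cultures 1, 2 and 5 (adjusted p 0.0529 to 0.177). Ces1d was not called by edgeR without day 1 cultures 1, 2 and 3, day 3 cultures 1, 2 and 3 or day 7 cultures 1, 4 and 5 (adjusted p 0.0515 to 0.196). Wnt7a and Phyhip lost their calls without any 1 of the 11 cultures (edgeR adjusted p 0.0517 to 0.183 and 0.0529 to 0.163).

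Among the rises that were chosen after their values were seen, Maoa, monoamine oxidase A, had 25.3, 29.2 and 21.8 CPM on day 3 and 54.6, 61.04, 46.7, 43.8 and 43.6 CPM on day 7 (log2 fold change 0.97, standard error 0.20, adjusted p 0.0435 by edgeR). Ugdh, which makes the UDP-glucuronate used for glycosaminoglycans, had 86.9, 66.9 and 100.04 CPM on day 3 and 166.6, 216.5, 144.3, 168.9 and 222.2 CPM on day 7 (log2 fold change 1.12, standard error 0.20, adjusted p 0.0254 by edgeR). Ltbp4, which binds latent TGF-beta in the matrix, had 20.4, 16.8 and 18.1 CPM on day 3 and 36.9, 47.6, 43.05, 54.6 and 36.8 CPM on day 7 (log2 fold change 1.25, standard error 0.21, adjusted p 0.0193 by edgeR). All day 7 cultures of the 3 genes were above all day 3 cultures. Fam20c, the secretory pathway kinase, had 30.1, 30.9 and 44.2 CPM on day 3 and 80.2, 92.4, 79.1, 143.8 and 68.5 CPM on day 7 (log2 fold change 1.40, standard error 0.28, adjusted p 0.0367 by edgeR), and Large2, an enzyme that extends the sugars of dystroglycan, had 41.4, 33.2 and 37.5 CPM on day 3 and 76.99, 89.4, 67.6, 84.97 and 69.5 CPM on day 7 (log2 fold change 1.06, standard error 0.19, adjusted p 0.0257 by edgeR). These 2 genes were separate between the days as well. Maoa was not called by edgeR without day 1 cultures 1, 2 and 3, day 3 cultures 1, 2 and 3 or day 7 cultures 1, 2, 3 and 4 (adjusted p 0.0606 to 0.218). Ugdh was not called by edgeR without day 3 cultures 1, 2 and 3 or day 7 culture 1 (adjusted p 0.0544 to 0.137). Ltbp4 was not called by edgeR without day 3 cultures 2 and 3 (adjusted p 0.0890 to 0.101). Fam20c was not called by edgeR without day 1 cultures 1 and 3, day 3 cultures 1, 2 and 3 or day 7 cultures 1 and 2 (adjusted p 0.0534 to 0.168). Large2 was not called by edgeR without day 3 cultures 1, 2 and 3 or day 7 cultures 1 and 2 (adjusted p 0.0508 to 0.137). Cacnb3, Chtop, Cmtm7 and Tmem30b also rose.

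**Figure D2:**
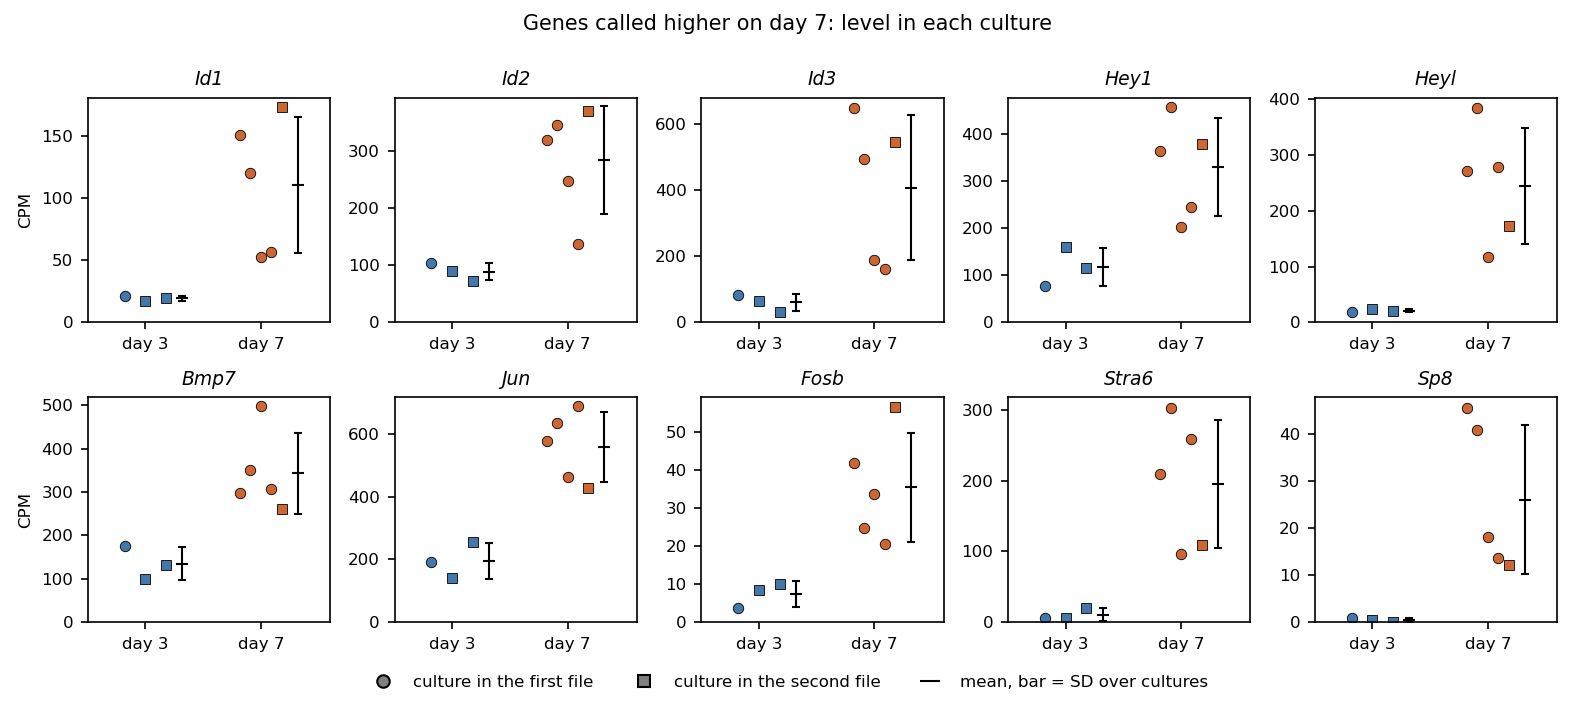
Level of 10 called-higher genes in each culture (y axis, CPM, linear scale from 0; x axis, day), with circles for cultures of the first deposited file and squares for the second, and the mean with SD beside them. In each panel all 5 day 7 cultures lie above all 3 day 3 cultures, and the day 7 cultures of Id1 split into 52.97 and 56.3 CPM against 120.4 to 173.1 CPM.

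The calls of the rises depended on single cultures. Without day 3 culture 2 edgeR called none of the 32 rises and no other gene higher, with 1613 genes of either direction at an unadjusted p under 0.05. Without day 3 culture 3 it kept 3 of them, without day 3 culture 1 it kept 4, and without day 7 culture 1 it kept 3. The falls were kept in larger number, from 25.5% of them without day 3 culture 2 to 75.2% without day 1 culture 1. None of the rises was called on leaving out each of the 11 cultures in turn, and 31 of the falls were. The first deposited file holds day 7 cultures 1 to 4 and day 3 culture 1, and the second holds day 7 culture 5 and day 3 cultures 2 and 3. All 32 rises were positive within each file, with median log2 fold changes of 1.87 and 1.46, and every fall was negative within each, apart from 1 without a value in the first file. As days 3 and 7 did not overlap for any of these genes except Acta2, the signs were largely fixed beforehand and add no support. With the file as a term in the fit, edgeR kept the calls of 16 rises and 69 falls.

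**Figure D3:**
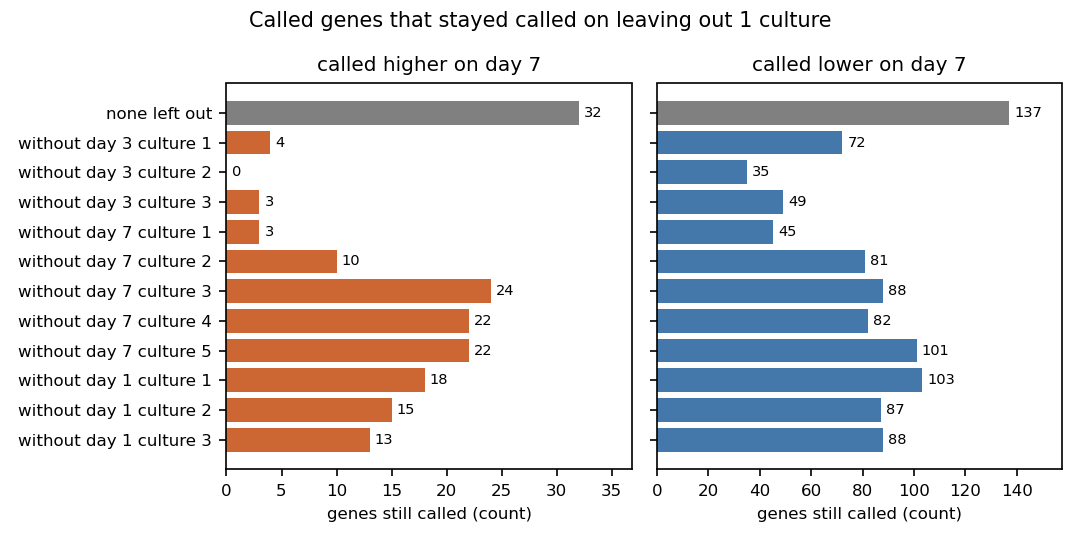
Number of the 32 called-higher (left) and of the called-lower genes (right) that edgeR still called after the culture named on the y axis was left out (x axis, count of genes). The left bars run from 0 without day 3 culture 2 to 24 without day 7 culture 3, the right bars from 25.5% to 75.2% of the falls.

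Tmsb4x, Lgals1, Lmna and S100a6 fell, each with a read in over 80% of day 3 cells; they were put together after their values were seen, and other falls were read in as many cells. Tmsb4x (ENSMUSG00000049775.16, chromosome X from 167207093 to 167209315), which codes for thymosin beta 4, the main protein that holds actin monomers in reserve, had 1858, 2466 and 1616 CPM on day 3 and 288.4, 366.6, 451.6, 420.96 and 531.4 CPM on day 7 (log2 fold change -2.27, standard error 0.23, adjusted p 0.00156 by edgeR). Every retained thinned cell of both days had a read of it, so the fall was one of level and not of the number of cells with a read. Lgals1, the lectin galectin 1, had 381.4, 470.97 and 312.3 CPM on day 3 and 54.7, 75.4, 87.8, 46.5 and 92.2 CPM on day 7 (log2 fold change -2.44, standard error 0.24, adjusted p 0.00156 by edgeR) and was read in 96.01% of day 3 cells and 89.5% of day 7 cells. Lmna, which codes for lamins A and C of the nuclear envelope, had 128.6, 89.97 and 80.2 CPM on day 3 and 15.96, 22.04, 32.8, 23.4 and 22.1 CPM on day 7 (log2 fold change -2.10, standard error 0.25, adjusted p 0.00290 by edgeR). In these 3 genes every day 3 culture was well above every day 7 culture. S100a6, a small calcium-binding protein, had 134.9, 196.8 and 109.3 CPM on day 3 and 12.6, 12.5, 18.6, 10.8 and 29.9 CPM on day 7 (log2 fold change -3.12, standard error 0.33, adjusted p 0.00156 by edgeR), with a read in 80.8% of day 3 cells and 45.05% of day 7 cells. All 4 calls were kept on leaving out each of the 11 cultures in turn, and the day 1 means of Tmsb4x (2262 ± 614.6 CPM), Lgals1 (939 ± 201.8 CPM), Lmna (98.8 ± 21.4 CPM) and S100a6 (314.8 ± 69.6 CPM) were each above the day 7 levels.

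Myl9, Myl6, Tpm2, Cald1, Cnn2, Csrp1, Tgfb1i1, Tagln and Acta2 also fell, and were chosen here, after their values were seen, as called genes whose proteins are part of or bind to actin filaments or their attachments; no list of such genes was counted. Myl9, the regulatory light chain of smooth muscle and non-muscle myosin, had 216.1, 244.7 and 163.6 CPM on day 3 and 40.4, 26.8, 13.5, 30.8 and 86.8 CPM on day 7, with day 7 culture 5 the highest of day 7 (log2 fold change -2.39, standard error 0.45, adjusted p 0.0289 by edgeR). The essential light chain Myl6 had 409.04, 538.6 and 400.4 CPM on day 3 and 169.01, 193.9, 176.3, 196.9 and 242.3 CPM on day 7 (log2 fold change -1.20, standard error 0.19, adjusted p 0.0157 by edgeR), and the tropomyosin gene Tpm2 had 50.4, 39.2 and 27.03 CPM on day 3 and 5.42, 3.40, 4.34, 9.05 and 11.5 CPM on day 7 (log2 fold change -2.52, standard error 0.37, adjusted p 0.00971 by edgeR). In all 3 genes the days were separate. Cald1, which codes for the actin-binding caldesmon, had 64.9, 48.6 and 35.7 CPM on day 3 and 11.2, 2.61, 8.98, 15.9 and 8.01 CPM on day 7 (log2 fold change -2.41, standard error 0.42, adjusted p 0.0232 by edgeR). Cnn2, a calponin, had 377.1, 244.1 and 256.5 CPM on day 3 and 100.04, 153.9, 98.6, 148.2 and 139.2 CPM on day 7 (log2 fold change -1.19, standard error 0.23, adjusted p 0.0308 by edgeR). Csrp1, a LIM protein of actin bundles, had 54.3, 22.999 and 27.9 CPM on day 3 and 5.21, 3.07, 6.70, 9.89 and 6.77 CPM on day 7 (log2 fold change -2.47, standard error 0.38, adjusted p 0.0119 by edgeR). These too were apart in every culture. Tgfb1i1, a LIM protein of focal adhesions, had 11.1, 16.1 and 13.2 CPM on day 3 and 0.806, 2.38, 1.97, 2.31 and 1.68 CPM on day 7 (log2 fold change -2.88, standard error 0.41, adjusted p 0.00923 by edgeR), and Tagln, the actin-binding transgelin, had 10.7, 6.62 and 10.99 CPM on day 3 and 0, 0.0330, 0.0181, 0.221 and 0.107 CPM on day 7 (log2 fold change -6.80, standard error 1.01, adjusted p 0.00983 by edgeR) in 9.21% of day 3 cells. Acta2, smooth muscle actin, was the called gene whose cultures overlapped, because day 3 culture 3 had no read of it, and 99.6% of its day 3 reads were in 5 cells. The calls of Tpm2, Csrp1, Tgfb1i1 and Tagln were kept on leaving out each culture in turn. Myl9 was not called by edgeR without day 3 cultures 1, 2 and 3 or day 7 cultures 1, 2 and 4 (adjusted p 0.0590 to 0.127). Myl6 was not called by edgeR without day 3 culture 2 (adjusted p 0.0861). Cald1 was not called by edgeR without day 3 cultures 1 and 2 or day 7 culture 1 (adjusted p 0.0573 to 0.0861). Cnn2 was not called by edgeR without day 1 culture 3, day 3 cultures 1, 2 and 3 or day 7 culture 1 (adjusted p 0.0508 to 0.0991). Acta2 was not called by edgeR without day 1 cultures 1, 2 and 3, day 3 cultures 1 and 2 or day 7 cultures 1, 2, 3 and 5 (adjusted p 0.0569 to 0.139).

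The promoters of Cnn2 and Myl9 are shown because these 2 falls share the CArG box, the element that serum response factor binds, within the 250 bases before the gene start. They are RefSeq sequences of GRCm38.p6, written 5′ to 3′ on the strand of the gene, from which any bases in annotated exons were trimmed, and the capitals mark the CArG box, which was searched on both strands.
Cnn2 promoter (chr10:79988350-79988583, plus strand): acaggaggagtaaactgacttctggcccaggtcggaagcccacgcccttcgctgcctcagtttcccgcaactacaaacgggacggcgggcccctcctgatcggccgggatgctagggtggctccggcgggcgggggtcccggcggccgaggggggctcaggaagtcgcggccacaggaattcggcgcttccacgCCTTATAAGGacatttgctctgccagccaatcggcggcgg
Myl9 promoter (chr2:156775214-156775419, plus strand): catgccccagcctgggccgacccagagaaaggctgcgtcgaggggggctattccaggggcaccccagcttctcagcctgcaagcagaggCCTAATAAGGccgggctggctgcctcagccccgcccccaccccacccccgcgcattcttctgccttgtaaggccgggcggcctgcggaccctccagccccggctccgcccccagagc
Of all 32851 promoter windows 1.47% hold it, as do 4 of the 91 called-lower genes with a window (4.40%, Cnn2, Myl6, Myl9 and Schip1) and 0 of the 21 called-higher genes with one. A match is a description of these letters and was not tested as a site.

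Of the intermediate filament genes, Krt19 and Vim fell. Krt19, a keratin of simple epithelia, had 258.97, 149.4 and 109.2 CPM on day 3 and 9.20, 5.74, 16.3, 25.7 and 44.1 CPM on day 7, with day 3 culture 1 the highest and day 7 culture 5 the nearest to day 3 (log2 fold change -3.09, standard error 0.53, adjusted p 0.0214 by edgeR). Vim, which codes for vimentin, had 599.2, 612.2 and 588.5 CPM on day 3 and 297.4, 313.3, 237.2, 255.3 and 271.8 CPM on day 7 (log2 fold change -1.13, standard error 0.16, adjusted p 0.00766 by edgeR), the day 3 cultures lying close together. All 11 tested genes of the list had negative fold changes and 6 had every day 7 culture below every day 3 culture (against 5.14% of all genes tested), with a median of -3.06, and edgeR called these 2. DESeq2 called 5, adding Krt8, Krt17 and Krt18. The call of Vim was kept on leaving out each culture in turn. Krt19 was not called by edgeR without day 3 cultures 1 and 2 or day 7 culture 1 (adjusted p 0.0553 to 0.0723). Anxa3, a calcium-dependent membrane-binding annexin, had 439.4, 486.3 and 221.1 CPM on day 3 and 15.3, 21.8, 43.4, 28.4 and 128.1 CPM on day 7 (log2 fold change -3.01, standard error 0.56, adjusted p 0.0289 by edgeR), its day 7 culture 5 far above the other day 7 cultures. Anxa3 was not called by edgeR without day 3 cultures 1 and 2 or day 7 cultures 1, 2, 3 and 4 (adjusted p 0.0539 to 0.125).

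The tight junction genes Cldn1 and Cldn4 fell. Cldn1 had 47.5, 33.6 and 24.6 CPM on day 3 and 1.46, 0, 0.217, 0.618 and 0.774 CPM on day 7 (log2 fold change -5.84, standard error 0.78, adjusted p 0.00568 by edgeR), so the day 7 cultures were near 0, and it was read in 26.004% of day 3 cells and 2.62% of day 7 cells. Its day 1 mean of 10.9 ± 1.22 CPM lay between those of the other days. Cldn4 had 730.2, 434.2 and 383.5 CPM on day 3 and 86.8, 122.6, 170.01, 88.9 and 203.9 CPM on day 7 (log2 fold change -1.94, standard error 0.33, adjusted p 0.0199 by edgeR) and was read in 86.1% of day 3 cells and 77.2% of day 7 cells, so most cells kept a read. Of 27 listed genes of claudins and epithelial junctions, all tested, these were the 2 called by edgeR and DESeq2 called 5 (0.968% and 3.66% over all genes tested). Of the 27, 21 were negative and the median log2 fold change was -0.27. Epcam, an adhesion molecule that marks epithelium, was not called, at 933, 1349 and 982 CPM on day 3 and 761.2, 1031, 919, 835 and 955 CPM on day 7 (edgeR adjusted p 0.655). The call of Cldn1 was kept on leaving out each culture in turn. Cldn4 was not called by edgeR without day 3 cultures 1 and 2 or day 7 culture 1 (adjusted p 0.0544 to 0.0772). The summed CPM of the 7 epithelium markers was 3714 to 5593 in the day 3 cultures and 2042 to 3179.9 in the day 7 cultures, and whether this had a part in the falls was not tested. Of these 7 edgeR called 0, with 5 under an unadjusted p of 0.05, and DESeq2 called 5.

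Within the first and the second file, Krt19 had log2 fold changes of -4.17 and -1.53, Anxa3 of -3.997 and -1.44, Cldn4 of -2.63 and -0.98, and Myl9 of -2.96 and -1.21. The fall was larger in the first file for all 4. For Cldn1 (-6.37 and -5.20), Tmsb4x (-2.28 and -1.92) and Lgals1 (-2.52 and -2.07) the 2 values were nearer to each other. The difference between files was not tested, and the second file has 1 day 7 culture, the one with the highest share of mitochondrial reads.

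**Figure D4:**
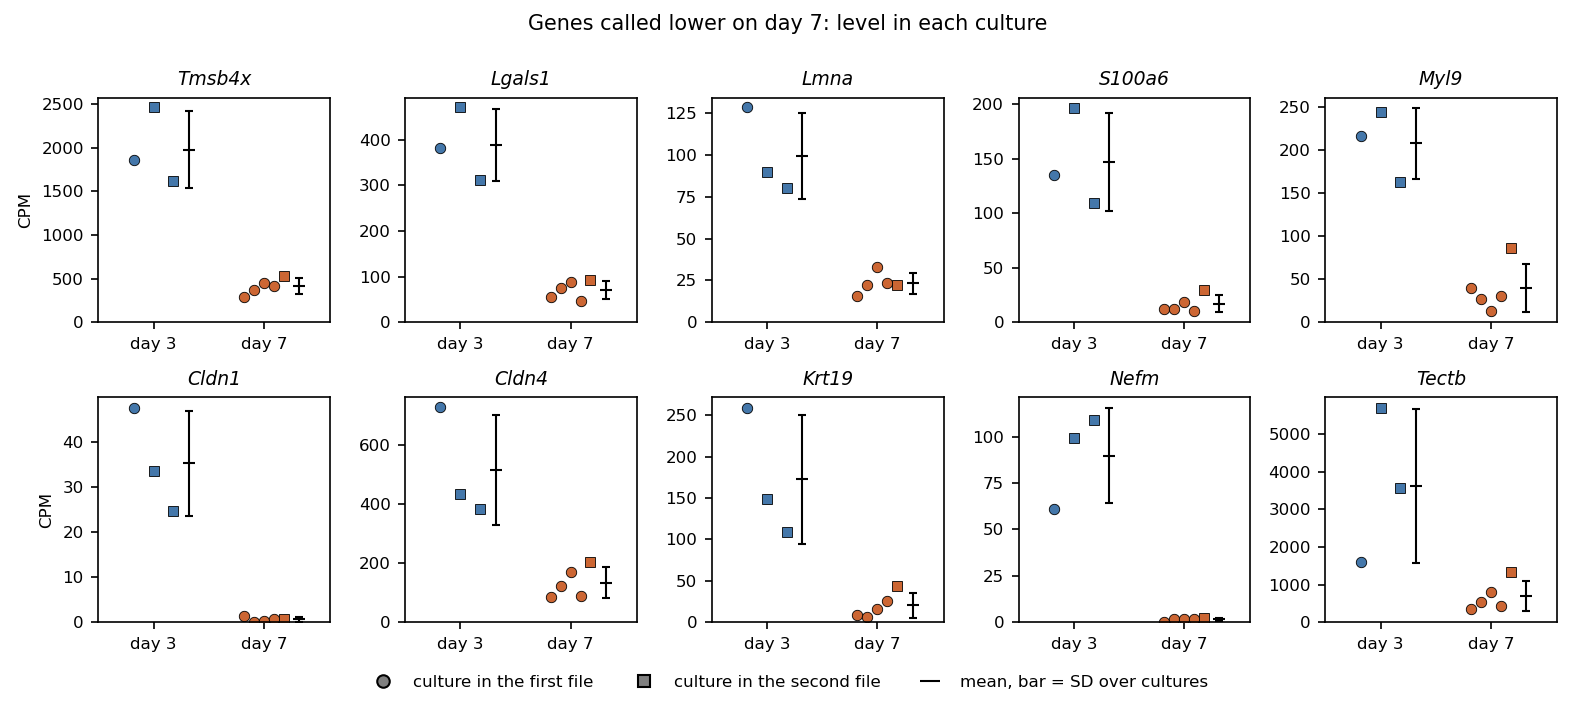
Level of 10 called-lower genes in each culture (y axis, CPM, linear scale from 0; x axis, day), with circles for cultures of the first file and squares for the second, and the mean with SD beside them. In each panel all 3 day 3 cultures lie above all 5 day 7 cultures, and day 7 culture 5, the day 7 square, is the highest of its day for Krt19 (44.1 CPM) and Myl9 (86.8 CPM).

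From the list of genes known from injured epithelia, Sprr1a, Tnfrsf12a and Plaur were called, all lower. Sprr1a, a protein of the cornified envelope that also marks injured nerve cells, had 37.2, 42.7 and 47.3 CPM on day 3 and 0, 0.0330, 1.01, 0.427 and 0 CPM on day 7 (log2 fold change -7.06, standard error 0.91, adjusted p 0.00451 by edgeR). The day 3 cultures were close together, day 7 cultures 1 and 5 had no read, and 75.6% of the day 3 reads came from 5 cells. Tnfrsf12a, the receptor for the cytokine TWEAK, had 254.7, 205.7 and 172.3 CPM on day 3 and 49.9, 34.7, 73.9, 59.5 and 81.1 CPM on day 7 (log2 fold change -1.82, standard error 0.27, adjusted p 0.00931 by edgeR) and, unlike Sprr1a, was read in most cells, 89.7% of day 3 cells and 78.2% of day 7 cells. Plaur, the urokinase receptor, had 9.37, 10.005 and 3.22 CPM on day 3 and 1.146, 1.39, 1.84, 0.957 and 0.654 CPM on day 7 (log2 fold change -2.65, standard error 0.50, adjusted p 0.0308 by edgeR), with 5 cells holding 62.1% of its day 3 reads. Of 17 tested genes 13 were negative, with a median log2 fold change of -1.39, and DESeq2 called 6. Among all genes tested, edgeR called 0.784% lower and DESeq2 called 3.66%. The calls of Sprr1a and Tnfrsf12a were kept on leaving out each culture in turn. Plaur was not called by edgeR without day 1 culture 2, day 3 cultures 1 and 2 or day 7 cultures 1, 2 and 4 (adjusted p 0.0529 to 0.138).

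The promoters of Cldn4, Sprr1a and Plaur are shown because these 3 falls carry the letters of an AP-1 site, the element that Jun and Fos proteins bind (TGACTCA, which is TGAGTCA on the other strand, so that both strands were searched). They are RefSeq sequences of GRCm38.p6 treated as above, written 5′ to 3′ on the strand of the gene, and the capitals mark the AP-1 letters.
Cldn4 promoter (chr5:134946935-134947184, minus strand): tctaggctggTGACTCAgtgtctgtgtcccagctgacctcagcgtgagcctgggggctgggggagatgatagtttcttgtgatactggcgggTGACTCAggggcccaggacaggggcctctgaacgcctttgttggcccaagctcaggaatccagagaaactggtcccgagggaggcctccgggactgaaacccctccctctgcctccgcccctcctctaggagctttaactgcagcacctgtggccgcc
Sprr1a promoter (chr3:92485896-92486131, minus strand): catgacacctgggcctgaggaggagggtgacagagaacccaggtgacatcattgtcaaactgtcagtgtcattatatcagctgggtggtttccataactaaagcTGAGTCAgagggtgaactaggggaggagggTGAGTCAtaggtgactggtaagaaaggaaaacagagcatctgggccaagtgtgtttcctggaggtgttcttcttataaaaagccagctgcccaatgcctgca
Plaur promoter (chr7:24462233-24462482, plus strand): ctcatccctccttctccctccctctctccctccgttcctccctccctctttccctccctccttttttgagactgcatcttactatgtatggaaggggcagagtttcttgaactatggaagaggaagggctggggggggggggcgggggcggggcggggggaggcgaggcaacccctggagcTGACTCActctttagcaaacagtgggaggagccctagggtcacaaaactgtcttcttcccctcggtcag
Cldn4 and Sprr1a have these letters 2 times each and Plaur once. Of all 32851 windows 4.46% hold them, as do 7 of the 91 called-lower genes with a window (7.69%) and 0 of the 21 called-higher genes with one. As with the CArG box, this describes the letters only.

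Nefm, Nefl, Chrnb4 and Penk fell, from the list of neurofilament, nicotinic receptor and enkephalin genes, all known from nerve cells. Nefm and Nefl, which code for the medium and light neurofilament chains, had 60.8, 99.5 and 109.03 CPM on day 3 and 0.217, 1.55, 1.59, 1.80 and 2.34 CPM on day 7 for Nefm (log2 fold change -5.88, standard error 0.62, adjusted p 0.00156 by edgeR) and 4.22, 21.4 and 22.8 CPM on day 3 and 0, 0.0660, 0.0542, 0.0883 and 0 CPM on day 7 for Nefl (log2 fold change -8.50, standard error 0.93, adjusted p 0.00165 by edgeR). Both were near 0 in all day 7 cultures, and in both day 3 culture 1 was the lowest of day 3. Their annotated spans on chromosome 14 overlap, with Nefl (ENSMUSG00000022055.7, chromosome 14 from 68083863 to 68089095) inside that of Nefm (ENSMUSG00000022054.11, chromosome 14 from 68082590 to 68124846), so reads could have been exchanged between them. Chrnb4, a subunit of the nicotinic acetylcholine receptor, had 22.5, 44.8 and 39.2 CPM on day 3 and 0.929, 6.17, 4.64, 5.12 and 1.95 CPM on day 7 (log2 fold change -3.24, standard error 0.52, adjusted p 0.0154 by edgeR), and Penk, the precursor of the enkephalins, had 22.6, 45.7 and 21.5 CPM on day 3 and 2.48, 1.95, 5.18, 2.15 and 5.11 CPM on day 7 (log2 fold change -3.14, standard error 0.54, adjusted p 0.0216 by edgeR). These 4 were the members called by edgeR of 10 tested in that list, of which DESeq2 called 5, with a median log2 fold change of -2.74 and 1 positive gene. Gap43, a growth cone protein and the gene called by edgeR and by DESeq2 among 7 tested neuron markers, had 19.1, 24.9 and 14.3 CPM on day 3 and 1.24, 4.82, 0.307, 1.97 and 1.67 CPM on day 7 (log2 fold change -3.29, standard error 0.60, adjusted p 0.0270 by edgeR). The summed CPM of the 10 neuron markers was 56.2 to 93.03 on day 3 and 16.3 to 38.04 on day 7, with none of the 10 at 0 over both days, and the part of other cells in these falls was not tested. The calls of Nefm and Nefl were kept on leaving out each culture in turn. Chrnb4 was not called by edgeR without day 3 cultures 2 and 3 (adjusted p 0.0552 to 0.0739). Penk was not called by edgeR without day 3 culture 2 or day 7 culture 1 (adjusted p 0.0637 to 0.104). Gap43 was not called by edgeR without day 3 cultures 1, 2 and 3 or day 7 culture 1 (adjusted p 0.0550 to 0.115).

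Of the genes that mark the GER and its supporting cells, Tectb, Lgr5 and Slc1a3 fell. Tectb, which codes for beta-tectorin of the tectorial membrane, had 1593, 5708 and 3566 CPM on day 3 and 360.4, 536.7, 803, 416.97 and 1341 CPM on day 7 (log2 fold change -2.39, standard error 0.44, adjusted p 0.0289 by edgeR), and its day 1 mean was 8308 ± 2690.3 CPM. Day 3 culture 1 was far below the other day 3 cultures and near day 7 culture 5. Tecta, the alpha-tectorin gene given above, overlapped between the days and was not called (edgeR adjusted p 0.936). Lgr5, a receptor for R-spondins and a Wnt target, had 87.02, 45.8 and 86.7 CPM on day 3 and 24.04, 28.9, 39.8, 15.6 and 25.8 CPM on day 7 (log2 fold change -1.45, standard error 0.30, adjusted p 0.0426 by edgeR), with day 3 culture 2 the lowest of day 3. Slc1a3, a glutamate transporter of supporting cells, had 107.7, 92.99 and 137.03 CPM on day 3 and 39.7, 54.6, 55.9, 74.7 and 64.2 CPM on day 7 (log2 fold change -0.96, standard error 0.20, adjusted p 0.0474 by edgeR). Fgfr3, whose promoter drives the Cre allele, stood at 1.71, 3.65 and 0.544 CPM on day 3 and 4.28, 6.76, 0.849, 1.56 and 0 CPM on day 7 and was not called (edgeR adjusted p 0.959). Of 11 tested genes of the GER and tectorial list Tectb was the one called by edgeR, and of 13 tested supporting cell genes Lgr5 and Slc1a3 were, with medians of -0.05 and 0.69. In the first list 5 genes were positive and 6 negative, and DESeq2 called Otogl as well. Otogl was higher on day 7 (log2 fold change 1.38, adjusted p 0.177 by edgeR). In the second list 8 genes were positive and 5 negative. There 2 genes had every day 7 culture above every day 3 culture, and 2, Lgr5 and Slc1a3, had every one below. Over all genes tested these shares were 2.99% and 5.14%. DESeq2, whose calls are counted in either direction, called Sox9, Sox10 and Jag1 as well. Lgr5 was also the one called by edgeR among 13 tested Wnt targets, whose median log2 fold change was 0.74 with 10 positive genes. Of these targets 3 had every day 7 culture above every day 3 culture, and 1 had every one below. There DESeq2 called Axin2, Lef1 and Nkd1 as well, again in either direction, and Nkd1 was higher on day 7 (log2 fold change 1.43, adjusted p 0.118 by edgeR). Tectb was not called by edgeR without day 3 cultures 2 and 3 or day 7 cultures 1, 2 and 4 (adjusted p 0.0556 to 0.141). Lgr5 was not called by edgeR without day 1 cultures 1, 2 and 3, day 3 cultures 1, 2 and 3 or day 7 cultures 1, 2, 4 and 5 (adjusted p 0.0546 to 0.181). Slc1a3 was not called by edgeR without day 1 cultures 1, 2 and 3, day 3 cultures 1, 2 and 3 or day 7 cultures 1, 2, 3 and 5 (adjusted p 0.0558 to 0.245).

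Targets of the integrated stress response, the pathway that raises amino acid synthesis genes through ATF4, gave 3 falls. Asns, asparagine synthetase, had 218.03, 242.4 and 247.8 CPM on day 3 and 66.2, 107.9, 78.7, 128.8 and 122.1 CPM on day 7 (log2 fold change -1.23, standard error 0.21, adjusted p 0.0216 by edgeR), and with a day 1 mean of 98.4 ± 10.5 CPM it was highest on day 3. Eif4ebp1, an inhibitor of translation chosen after its values were seen, also had a day 1 mean (50.5 ± 3.33 CPM) below the day 7 mean, from 134.05 ± 33.5 CPM on day 3 to 63.1 ± 16.6 CPM on day 7 (mean ± SD). Stc2, a secreted stanniocalcin, had 9.21, 9.54 and 6.62 CPM on day 3 and 1.89, 1.42, 1.93, 1.87 and 1.70 CPM on day 7 (log2 fold change -2.26, standard error 0.42, adjusted p 0.0289 by edgeR). Nupr1, a stress-induced nuclear protein, had 0.957, 0.860 and 46.99 CPM on day 3 and 0, 0, 0.0542, 0 and 0.0935 CPM on day 7 (log2 fold change -8.78, standard error 1.48, adjusted p 0.0199 by edgeR). Day 3 culture 3 stood far above the others, and 5 cells held 95.8% of its day 3 reads. Of 21 tested genes 16 were negative, with a median log2 fold change of -0.58, and DESeq2 called 5. For all genes tested the shares were 0.784% called lower by edgeR and 3.66% called by DESeq2. Asns was not called by edgeR without day 3 cultures 2 and 3 (adjusted p 0.0890 to 0.0949). Eif4ebp1 was not called by edgeR without day 1 cultures 1, 2 and 3, day 3 cultures 1, 2 and 3 or day 7 cultures 1, 2, 3 and 4 (adjusted p 0.0600 to 0.226). Stc2 was not called by edgeR without day 3 cultures 1, 2 and 3 or day 7 cultures 1 and 4 (adjusted p 0.0521 to 0.148). Nupr1 was not called by edgeR without day 3 culture 3 or day 7 culture 1 (adjusted p 0.0573 to 0.248).

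The remaining falls named by the rule were Car2, Egfl6, Nell2 and Lsamp. Car2, carbonic anhydrase 2, had 52.2, 82.9 and 116.3 CPM on day 3 and 8.15, 10.4, 23.8, 6.92 and 18.2 CPM on day 7 (log2 fold change -2.63, standard error 0.43, adjusted p 0.0180 by edgeR). The secreted protein Egfl6 had 40.4, 144.8 and 64.6 CPM on day 3 and 5.14, 5.81, 14.6, 20.99 and 23.3 CPM on day 7, with day 3 culture 2 highest (log2 fold change -2.57, standard error 0.51, adjusted p 0.0385 by edgeR). Nell2, a secreted glycoprotein, had 33.6, 31.1 and 20.5 CPM on day 3 and 1.70, 3.83, 5.17, 3.75 and 2.04 CPM on day 7 (log2 fold change -3.10, standard error 0.42, adjusted p 0.00633 by edgeR), and the adhesion molecule Lsamp had 23.7, 51.001 and 48.7 CPM on day 3 and 8.30, 2.18, 8.40, 1.605 and 7.42 CPM on day 7 (log2 fold change -2.88, standard error 0.53, adjusted p 0.0280 by edgeR). The rule took only genes without overlap between the days, so the separation of these genes was set beforehand. The call of Nell2 was kept on leaving out each culture in turn. Car2 was not called by edgeR without day 3 cultures 2 and 3 or day 7 culture 1 (adjusted p 0.0524 to 0.0785). Lsamp was not called by edgeR without day 3 cultures 2 and 3 or day 7 culture 1 (adjusted p 0.0558 to 0.118). Egfl6 was not called by edgeR without day 1 cultures 1, 2 and 3, day 3 cultures 2 and 3 or day 7 cultures 1, 2 and 3 (adjusted p 0.0534 to 0.207). Of all falls, 74 had a day 1 mean above the day 3 mean and 63 below it. Asns and Eif4ebp1 were the falls whose day 1 mean was below the day 7 mean.

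Pou4f3 and Pvalb of the hair cell list fell, and their day 3 reads lay in few cells. Cells were said to carry hair cell transcripts when 2 or more of the genes Pvalb, Myo7a, Gfi1, Pou4f3 and Atoh1 had a read in their full counts, and 10 day 3 cells (3, 3 and 4 in the 3 cultures) and 1 day 7 cell (in culture 4) did so. Another 9 day 3 and 6 day 7 cells had a read in exactly 1 of the 5 genes. Pou4f3, a factor that hair cells need to survive, had 6.76, 27.3 and 37.3 CPM on day 3 and 0, 0, 0, 0.147 and 0 CPM on day 7, and 98.1% of its day 3 reads lay in those 10 cells (log2 fold change -9.30, standard error 1.90, adjusted p 0.0418 by edgeR). The calcium buffer Pvalb had 1.37, 41.3 and 19.6 CPM on day 3 and 0, 0.0330, 0, 0.103 and 0 CPM on day 7 (log2 fold change -9.34, standard error 1.97, adjusted p 0.0465 by edgeR). Both genes were used to find these cells. Fgf8, a growth factor made by inner hair cells, was not used, and had 1035 reads on day 3, 99.5% of them in the 10 cells, and 2 on day 7. Atoh1 itself had 1.87, 7.02 and 13.6 CPM on day 3 and 0, 0, 0.0181, 3.798 and 0 CPM on day 7 and was not called (edgeR adjusted p 0.593), day 7 culture 4 being the one with the cell. Of 19 tested genes of the hair cell list edgeR called 3 lower and none higher, DESeq2 called 10, 17 were negative, 9 had every day 7 culture below every day 3 culture (against 5.14% of all genes tested), and the median log2 fold change was -6.75, or -6.49 with the 7 genes of 3 reads or fewer in a day set to 3 reads. Pou4f3 was not called by edgeR without day 3 cultures 1, 2 and 3 or day 7 cultures 1, 2, 3, 4 and 5 (adjusted p 0.0634 to 0.144). Pvalb was not called by edgeR without day 3 cultures 1, 2 and 3 or day 7 cultures 1, 2, 3, 4 and 5 (adjusted p 0.0505 to 0.191). Fgf8 was not called by edgeR without day 1 culture 2, day 3 cultures 2 and 3 or day 7 cultures 1, 2, 3, 4 and 5 (adjusted p 0.0582 to 0.168).

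Those 10 cells, 4.39% of the day 3 cells with 4.16% of their reads, held over 50% of the day 3 reads of 15 called-lower genes. Among these were Dlk2, a Notch ligand relative (99.4% of its day 3 reads), the transmembrane gene Tmem255b (97.6%), Chrng, the fetal muscle nicotinic receptor subunit (99.9%), Thsd7b (91.6%), Ecel1, a metalloprotease-like enzyme of nerve cells (78.8%), Cadps, a priming factor for dense-core vesicles (75.3%), and the peptide gene Grp, a precursor of gastrin-releasing peptide (60.2%). They were chosen after their values were seen. The 10 cells also held 64.2% of the day 3 reads of Nefl and 45.1% of those of Nefm, but 0% of those of Chrnb4 and 1.58% of those of Penk. Over all falls the median was 2.15%. When cells with hair cell transcripts were left out on both days, 20 of the falls were no longer called, 7 of them without a value, and all falls with a value stayed negative except Dlk2 (log2 fold change 0.37). The same fit kept the calls of 85.4% of the falls but of 21 of the 32 rises (65.6%), which all stayed positive. Fbxw9, also among the 20 lost, had 8.47% of its day 3 reads in the 10 cells, against 99.4% for Dlk2. Its log2 fold change was -1.01 with all cells and -0.963 without these. A lost call alone therefore does not show that these cells carried a fall, which was not tested. All fold changes in the next sentence are also from the fit without these cells. The log2 fold change of Nefm was then -5.09 (edgeR adjusted p 0.00515), that of Nefl -7.41 (0.0190), that of Ecel1 -5.55 (0.0134) and that of Tmem255b -5.69 (0.0329). With all cells, the calls of Ecel1, Thsd7b, Tmem255b and Grp were kept on leaving out each culture in turn. Dlk2 was not called by edgeR without day 1 cultures 1, 2 and 3, day 3 cultures 1, 2 and 3 or day 7 cultures 1, 2 and 3 (adjusted p 0.0546 to 0.144). Chrng was not called by edgeR without day 3 cultures 2 and 3 or day 7 cultures 1, 2, 3 and 5 (adjusted p 0.0501 to 0.138). Cadps was not called by edgeR without day 3 cultures 2 and 3 or day 7 cultures 1 and 3 (adjusted p 0.0603 to 0.101). The calls of Dlk2, Thsd7b, Cadps and Lgr5 were among the 20 lost, Lgr5 with a log2 fold change of -1.33 (edgeR adjusted p 0.0696).

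**Figure D5:**
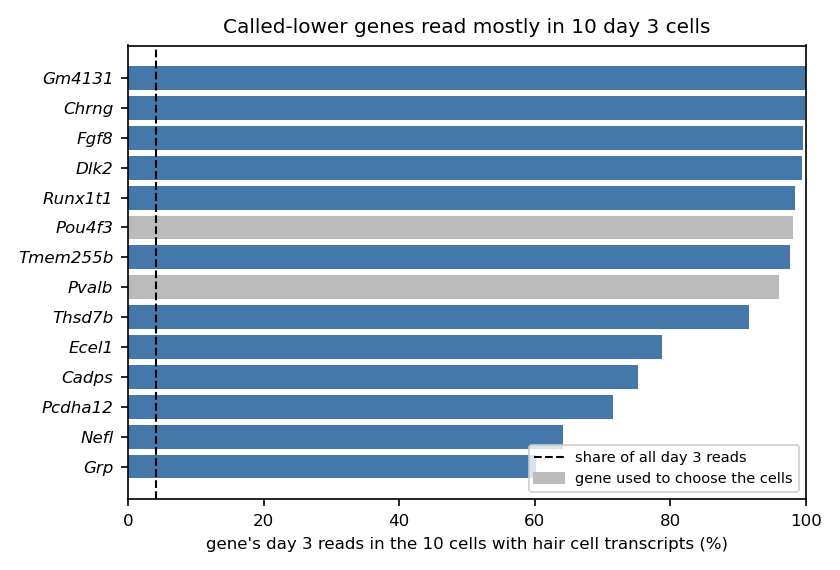
Share of a gene's day 3 reads that lay in the 10 day 3 cells with hair cell transcripts (x axis, percent), for 14 of the 15 called-lower genes (y axis) with over 50% there; grey bars are genes used to choose the cells, and the dashed line at 4.16% is the share of all day 3 reads in those cells. The bars run from 60.2% for Grp to 100% for Gm4131.

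Reads of other genes that fell also lay in few cells, for Rgs5 mostly outside those 10. Rgs5, the called marker of the pericyte list, had 33.5, 43.7 and 0.854 CPM on day 3 and 0, 0, 0.0181, 0.236 and 0 CPM on day 7, with 98.6% of its day 3 reads in 5 cells and 0.951% in the cells with hair cell transcripts (log2 fold change -8.72, standard error 1.53, adjusted p 0.0232 by edgeR). Day 3 culture 3 was far below the other day 3 cultures. The summed CPM of the 4 pericyte markers, Rgs5 included, was 3.36 to 45.5 on day 3 and 2.14 to 3.03 on day 7, with Kcnj8 at 0 reads. Rgs5 made up most of that sum in day 3 cultures 1 and 2, so the sum mainly restates its fall. Of the 3 markers tested, 1 was positive and 2 were negative. Whether pericytes had a part in the falls of Acta2 and Tagln was not tested. Gdf10, a BMP-like secreted factor, had 16.9, 25.7 and 6.74 CPM on day 3 and 0, 0, 0, 0.0736 and 0 CPM on day 7 (log2 fold change -9.66, standard error 1.40, adjusted p 0.00931 by edgeR), in 13.6% of day 3 cells and with a day 1 mean of 0.184 ± 0.293 CPM. Postn, the matrix protein periostin, had 19.1, 7.29 and 5.75 CPM on day 3 and 0, 0, 0, 0.0736 and 0 CPM on day 7 (log2 fold change -9.04, standard error 1.22, adjusted p 0.00611 by edgeR), and the matrix-like protease Pamr1 had 10.2, 6.14 and 7.98 CPM in the day 3 cultures and 1 read on day 7. Day 7 cultures 1, 2, 3 and 5 had no read of Gdf10, Postn or Pamr1. The membrane protein Cd34 had 6.62, 2.15 and 3.59 CPM in the day 3 cultures and no read on day 7, at least 364.6-fold lower against 3 reads over the 5 day 7 cultures. Gdf10, Postn, Pamr1 and Cd34 were chosen after their values were seen. The calls of Postn and Cd34 were kept on leaving out each culture in turn. Rgs5 was not called by edgeR without day 3 cultures 1 and 2 or day 7 culture 1 (adjusted p 0.0550 to 0.101). Gdf10 was not called by edgeR without day 3 culture 2 (adjusted p 0.0624). Pamr1 was not called by edgeR without day 3 cultures 2 and 3 or day 7 cultures 1 and 4 (adjusted p 0.0592 to 0.0753).

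Several further falls, chosen after their values were seen, were kept on leaving out each culture in turn. Cav1, which coats caveolae, had 2.93, 4.71 and 2.21 CPM on day 3 and 0, 0, 0, 0.0147 and 0 CPM on day 7 and 1 day 7 read, a level 827-fold lower on day 7 (95% exact counting interval 147.8 to 32720.1). Edn1, the precursor of endothelin 1, had 2.56, 3.58 and 1.63 CPM on day 3 and 0, 0, 0, 0.0147 and 0 CPM on day 7 and likewise 1 day 7 read, a level 656.02-fold lower on day 7 (95% exact counting interval 117.1 to 25971). Cdh13, a cadherin held in the membrane by a lipid anchor, had 4.82, 9.09 and 2.17 CPM on day 3 and 0, 0, 0.0181, 0.0442 and 0 CPM on day 7 (log2 fold change -8.30, standard error 1.06, adjusted p 0.00410 by edgeR). Vcam1, an adhesion molecule of activated endothelium and other cells, had 5.98, 5.37 and 17.2 CPM on day 3 and 0, 0.132, 0.0181, 0.0147 and 0 CPM on day 7 (log2 fold change -8.33, standard error 1.04, adjusted p 0.00400 by edgeR). Each was lower in every day 7 culture than in every day 3 culture, and they were read in 4.49%, 5.28%, 7.22% and 6.34% of day 3 cells in this order. Of 7 endothelial markers, Pecam1, Kdr, Cldn5 and Flt1 had no read on either day. The summed CPM of the 7 was 0.625 to 26.6 in the day 3 cultures and 0 to 5.24 in the day 7 cultures. The part of endothelial cells in these falls was not tested.

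A test in which each cell counts once, limma on the logit of the share of thinned cells with a read, called 64 genes (0.366% of those tested). It kept 10 of the 32 rises, Fam107a, Fosb, Gstm2, Hey1, Heyl, Id1, Phyhip, Plat, Sp8 and Stra6. It kept 22 of the falls, among them Car2, Chrnb4, Cldn1, Lmna, Nefl, Nefm, Nell2, S100a6, Sdr16c5 and Tagln. Genes read in nearly every cell of both days, such as Tmsb4x, can hardly move in that measure, and Myl6 had a log2 odds ratio of opposite sign there (0.90).

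In several lists no gene was called by edgeR. None of the 34 S phase and 39 G2 and M phase genes was called, with 1 of each under an unadjusted p of 0.05 and 29 and 33 positive. DESeq2 called 1 and 0 of them. Mki67, a marker of cycling cells, had 108.6, 128.4 and 108.7 CPM on day 3 and 208.9, 48.6, 164.1, 161.8 and 48.6 CPM on day 7, which spread over more than the day 3 range (edgeR adjusted p 0.964). The inhibitors of cyclin-dependent kinases, with 6 tested, had a median log2 fold change of -0.83, 4 genes under an unadjusted p of 0.05 and 2 called by DESeq2, Cdkn1a and Cdkn2b, for which edgeR gave log2 fold changes of -1.18 and -3.71 (adjusted p 0.0858 and 0.127). Of 26 tested genes of cholesterol and fatty acid synthesis 24 were positive, with a median of 0.41, 6 under an unadjusted p of 0.05 and 2 called by DESeq2 (Scd1 and Srebf1). Interferon-response genes had 12 of 16 positive and a median of 0.82, with 3 under an unadjusted p of 0.05, all 3 called by DESeq2 (Iigp1, Psmb8 and Psmb9). The activin and TGF-beta list had 14 of 19 negative and a median of -0.68, with 6 under an unadjusted p of 0.05 and 2 called by DESeq2 (Inhba and Tgfb2).

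No gene was called by edgeR either among 21 tested glycolysis and hypoxia genes, 15 genes of ERK feedback, 10 of gap junctions and spontaneous activity, 9 small leucine-rich proteoglycans or 9 growth regulators such as Igf2bp2. Their median log2 fold changes were 0.05, -0.15, 0.24, 0.33 and -0.05 in this order. In the same order 4, 3, 5, 3 and 2 of their genes were under an unadjusted p of 0.05, and DESeq2 called 2, 1, 2, 1 and 0. Gjb2, the connexin 26 gene of cochlear gap junctions, had 306.96, 168.5 and 244.4 CPM on day 3 and 926, 1306, 356.5, 430.6 and 648.5 CPM on day 7 and missed the threshold (log2 fold change 1.61, standard error 0.41, adjusted p 0.0964 by edgeR). Among antioxidant genes Gstm2 was the one called by edgeR and by DESeq2 of 22 tested, with a median of 0.03.

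For each culture, 4 measures were compared with exact two-sided permutation tests over the 8 cultures, for which the smallest possible p is 0.0179, and p-values were adjusted over the 4. Cells had mitotic transcripts when 3 or more of the genes Tpx2, Ccnb2, Birc5, Cdk1, Top2a and Mki67 had a read after thinning. Such cells made up 67.9%, 63.6% and 54.2% of the day 3 cultures and 56.4%, 40.5%, 86.96%, 74.4% and 25.3% of the day 7 cultures. The day 7 cultures lay on both sides of day 3, and the means of 61.9% ± 7.01 (SD, n = 3) and 56.7% ± 24.9 (n = 5) did not differ beyond this spread (exact permutation p 0.732). Cells with hair cell transcripts made up 3.57%, 4.55% and 5.56% of the thinned cells of the day 3 cultures and 0%, 0%, 0%, 1.28% and 0% of those of day 7. The 2 groups were separate, with the smallest p that 8 cultures allow (exact permutation p 0.0179, adjusted 0.0714). In a day 7 culture, 0 cells allowed a share of up to 4% to 8.11%, by counting error alone, limits that reach the day 3 shares. The median thinned cell of a culture had a read in 6248 ± 230.8 genes on day 3 and 5843 ± 542.99 on day 7 (exact permutation p 0.25, adjusted 0.5), and 3.95% ± 0.642 and 4.78% ± 1.13 of the median cell's reads were mitochondrial (exact permutation p 0.393, adjusted 0.524).

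Of the other cell types, macrophage, endothelial, melanocyte, roof and Reissner's membrane, and erythroid markers summed to 0 to 26.6 CPM per culture over these 5 lists. The highest of these sums was that of the endothelial markers in a day 3 culture. Beside the 4 endothelial genes at 0 above, Dct, Tyr, Tyrp1 and Mlana of melanocytes had no read on either day. Mesenchyme markers summed to 510.1 to 651.4 CPM on day 3 and 386.8 to 1808 CPM on day 7, Schwann cell and glia markers to 60.3 to 96.8 and 91.9 to 114.3, stria marginal cell markers to 68.5 to 79.02 and 51.3 to 207.4, and outer sulcus markers to 22.4 to 42.2 and 30.7 to 55.9, with no gene of these 4 lists called by edgeR. In the same order 2, 1, 0 and 1 of their genes were under an unadjusted p of 0.05, and DESeq2 called Sox10 of the Schwann cell and glia list and no gene of the other 3.

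When cells with and without mitotic transcripts in their full read counts were summed separately, the directions were the same in both. The genes had been called on the sums of these same cells, so like signs in the 2 parts add no separate support. All 32 rises were positive in cells without mitotic transcripts (median log2 fold change 1.74) and in cells with them (1.71). Every fall with a value was negative in the first kind (median -2.50) and in the second (median -2.18). With fewer cells a culture, edgeR kept 8 rises and 29 falls in the first kind and 3 rises and 26 falls in the second. Lgals1, Lmna, Myl6, Nefl, Nefm, S100a6 and Tmsb4x were among the falls kept in both.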

How the data were processed

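The authors deposited estimated counts per gene and cell in 2 files, and per the submitters' processing notes STAR 2.5.3a, RSEM 1.3.0 and the builds mm10 and GRCm38 were used; the counting settings are not given in the sources used here. Of the nonzero deposited values 10.6% were not whole, so expected counts were rounded to whole numbers per cell. Of 576 labelled cells of days 3 and 7, 529 were kept (228 of 255 on day 3, 301 of 321 on day 7; 711 of 768 in the whole series) and 47 failed a limit (14 too few reads, 15 too few genes, 28 too many mitochondrial reads, some more than 1). Rows of 92 ERCC spike-ins and 4 transgenes stayed out of the tests; the share of reads outside genes was 0.0045%. Counts were summed per culture and tested with edgeR 4.0.16 (R 4.3.3), by TMM normalisation, filterByExpr by day and the quasi-likelihood F-test with day as the only term, in 1 fit over 11 cultures in which the 3 day 1 cultures add to the estimate of the spread (8 residual degrees of freedom). A gene was called at a Benjamini-Hochberg adjusted p under 0.05, which gave 169 genes, 32 higher and 137 lower. SEs were taken from the fold change and the F statistic. DESeq2 1.42.0 and limma 3.58.1 were used for alternatives, Python 3.11.15 for the rest. The median of reads per cell was 762532 to 843600 in the day 3 and 828714 to 971248 in the day 7 cultures, and that of genes 6421.5 to 7151 and 5681 to 7155.5. On data simulated for this comparison from 16894 genes, edgeR called 65.3% of genes with a log2 fold of 2, 43.8% of those with -2, 86% of those with 4, 86.0% of those with -4 and 2 of 16704 unchanged genes. The simulated counts had the spread that edgeR had fitted as a trend, with no file effect and no reads gathered in few cells. These shares therefore need not hold for the real counts. Shares of cells were taken after thinning each cell to 200000 reads, leaving out shallower cells (6 on day 3 and 3 on day 7).

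Named genes were the 12 called genes with the largest log2 fold change in each direction among those without overlap, with a mean of at least 20 CPM and a read in at least 20% of cells in the higher day, every called member of a list, the 2 members of each list with the smallest p, and a preset list; others are said to have been chosen after their values were seen. Some genes that this rule names are not reported here. The comparison and the lists were chosen with earlier results of these data known. Gene coordinates are from GENCODE M21 (GRCm38), of whose versioned identifiers 93.2% of the file's matched. Promoters are RefSeq windows from 250 bases before the gene start, on GRCm38.p6, available for 91 called-lower and 21 called-higher genes.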

Additional observations from a re-analysis of the deposited data

Results flagged for a closer look

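Of 80 results checked over the 5 day 7 cultures, 8 had 1 culture far from the other 4, by a gap of more than 0.71 of the group's range. For normally distributed values chance gives such a gap in about 1 in 20 groups. That rate does not hold where most cultures were at or near 0, as for Atoh1, Rgs5 and the share of cells with hair cell transcripts. Anxa3 was at 128.1 CPM in culture 5. Atoh1 was at 3.798 CPM in culture 4, the culture that held the 1 day 7 cell with hair cell transcripts, which also set the share of such cells there to 1.28% against 0% elsewhere. Rgs5 was at 0.236 CPM in culture 4. In culture 3, Nqo1, an antioxidant enzyme, was at 14.6 CPM, and Podn, a small proteoglycan, at 2.35 CPM. Otogl, an otogelin-like protein of acellular membranes, was at 74.8 CPM in culture 1. The share of mitochondrial reads was 6.76% in culture 5, where the other day 7 cultures had at most 4.51%.

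The 4 transgene rows of the deposited files were used in no comparison, and all had reads on both days. The egfp row had a read in 91.2% of day 3 cells and 88.4% of day 7 cells, and the tdtomato row in 25.4% and 13.6%. The ert2transgene row had a read in 7.02% and 7.64%, and the icretransgene row in 5.70% and 5.32%. A count of 0 would have allowed 1.32% and 0.997%. The differences between days were not tested.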

How the results depend on the processing

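As a percent of the genes tested, 0.968% were called (0.183% higher, 0.784% lower). The 8 cultures of days 3 and 7 only gave 0.423% (0.0859% and 0.337%), the file as a term 0.584% (0.1202% and 0.464%), and the second file alone, where day 7 has 1 culture, 0.105% (0.0105% and 0.0945%). In the first file alone, where day 3 has 1 culture, edgeR called 0 genes, with 1010 at an unadjusted p under 0.05; a lone culture was assumed to vary like the others. DESeq2 called 3.66% (1.3% and 2.36%), limma on the share of cells with a read 0.366% (0.103% and 0.263%), and a filter of 5 CPM in 3 cultures gave 0.452% higher. Cells with mitotic transcripts alone gave 0.286% (0.0325% and 0.253%) and cells without them 0.316% (0.0791% and 0.237%); these and the share of cells were chosen after seeing the data. Leaving out 1 culture gave 0.189% to 1.01% called, 0% to 0.227% higher and 0.189% to 0.837% lower. Cultures of the same replicate number showed little correlation in their deviations from the day means (0.019, 0.026 and -0.010). This cannot tell whether they came from the same animal or pool, which the labels do not give. With the replicate number as a block, 0.5496% were called (0.0630% and 0.487%), with 8 of the 32 rises and 51 of the falls among them. Leaving out 1 culture, the day 7 minus day 3 difference in the percent of cells with mitotic transcripts ranged from -12.7 to 2.68 points, the latter without day 7 culture 5. TMM and RLE scaling gave medians over all genes of 0.010 and 0.005.

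Log2 fold changes of opposite sign were found for genes that were not called, and for Dlk2 (0.37 without cells with hair cell transcripts) and Myl6 (0.90 for the share of cells). Bgn ranged from -9.16 to 1.61 on leaving out 1 culture. Epcam was at 0.0915 for the share of cells, Hes5 at -0.13 in cells with mitotic transcripts and Sox2 at 0.69 in the first file. Fgfr3 was at -0.38 in cells without mitotic transcripts, -0.35 with the file term, -0.76 for the share of cells and -9.80 in the second file, and ranged from -0.24 to 1.25 on leaving out 1 culture. Mki67 was at -0.74 in cells without mitotic transcripts, -0.087 with the file term, -0.22 by limma on mean CPM, -0.25 for the share of cells and -1.26 in the second file, and ranged from -0.12 to 0.34. Nusap1 was at -0.29 and Rrm1 at -0.12 in the second file. Tecta was at -0.37 in the first file and -0.098 with the block, and ranged from -0.064 to 0.28. The cause of these changes was not tested. Precision is limited by 3 and 5 cultures.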
